A study of Mus musculus with 3 samples.

Results

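Claudins and endothelial junction proteins hold neighbouring cells together and decide what passes between them. The group described here was chosen by gene symbol, by a rule that uses no measured value. It holds every row of the expression table whose symbol is *Cldn* followed by a number and at most 1 letter, and 19 named genes of adherens and tight junctions. This gave 44 genes, 25 of them claudins, of the 24346 gene symbols in the table. The values came from bulk RNA-seq of endothelial cells (ECs) of the adult lung, the lung part of a study of EC specialization across organs and development. The mice were wild-type C57BL/6J males aged 6 to 8 weeks, and their cells were sorted straight from the tissue, with no culture, in 3 libraries called S38, S44 and S52. All 3 are of 1 condition, so no treatment or organ was compared, and whether each library came from separate mice is not stated in the sources used here. Vessels were labelled in the living mouse with an injected antibody to VE-cadherin, the dissociated cells were stained for CD31, CD45 and podoplanin, and the cells were sorted. VE-cadherin and CD31 are the products of *Cdh5* and *Pecam1*, so high levels of these genes follow from the sort and are no finding. The paper describes its sorted kidney ECs as negative for CD45 and podoplanin, and its text does not spell out the gates for the lung. Where the same gates were used, low levels of leukocyte and lymphatic markers would follow from the sort too.

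In an endothelial junction, VE-cadherin binds its like on the next cell, and catenins tie its tail to the actin skeleton. Tight junctions are built from claudins, occludin and the junctional adhesion molecules (JAMs), which the scaffold protein ZO-1 gathers on the inner face of the membrane. Different claudins give barriers of different selectivity. Claudin-5 is the best known claudin of vessels, and claudins 3, 4, 7 and 18 are known chiefly from the epithelium of the airways and alveoli. Values are FPKM (fragments per kilobase of transcript, scaled to the size of the library), a unit that allows levels of different genes to be set side by side. The depth was estimated from the low values themselves at 38000000 (S38), 38800000 (S44) and 33900000 (S52) fragments. Of 8 further endothelial genes, 8 were at 1 FPKM or above in every library, with medians of 337 (S38), 357 (S44) and 307 FPKM (S52), so the libraries carry the labelled cell type. The 8 genes summed to 3055, 3240 and 3248 FPKM in the same order. Genes of other cells were present too. The summed level of 4 platelet genes was 1692, 1345 and 37.96 FPKM and that of 5 alveolar type 2 genes 3778, 3164 and 755 FPKM, in the order S38, S44 and S52. *Sftpc* alone made up most of the alveolar type 2 sums, at 3333, 2862 and 658 FPKM. The medians of these 5 genes were 182, 121 and 33.7 FPKM, and those of the 4 platelet genes 244, 216 and 9.11 FPKM. S52 therefore stood apart from the other libraries in these genes, and every comparison between libraries below also holds that difference.

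Genes averaging 1 FPKM or more over the libraries were counted as detected. This held for 20 of the 44 members, or 45.5%, against 48.3% of all genes of the table. The family and the named genes fell on different sides of that share. Of the 25 claudins, 6 were detected (24%), and of the 19 named junction genes 14 were (73.7%). The named genes were picked 1 by 1 and include *Cdh5* and *Pecam1*, the genes of the sort. The claudins are every row that matches the symbol form, so the gap between the shares also holds how the lists were made. The same 20-gene count was obtained when 1 FPKM was required in each library. Over all 24346 genes the count was then 10698, beside 11770 by the mean, so how the members stood to the table depended on the rule. The highest members were *Cldn5*, *Pecam1*, *Cdh5* and *Esam*, which ranked 63, 79, 97 and 183 among all genes. The lowest detected member was *Cldn15*, at rank 10043. Among the 19 pairs of neighbours in the order of means, the library ranges of 10 pairs overlapped. Such ranges do not compare the genes within a library, so overlap alone does not show that their levels are equal. The overlapping pairs were *Cldn5* and *Pecam1*, *Ctnna1* and *Ctnnb1*, *Jup* and *Tjp1*, *Cd99l2* and *Ocln*, and every pair from *Cldn12* down to *Cldn15*. Ranges overlapped for *Ctnna1* and *Ctnnb1*, *Jup* and *Tjp1*, *Jam3* and *Cldn3*, *Cldn3* and *Cldn7*, and *Cldn7* and *Cldn15* although the first was higher in all 3 libraries. With 3 libraries an exact sign-flip test of one gene against another cannot give a two-sided p below 0.25, so no such test was run.

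**Figure D1:**
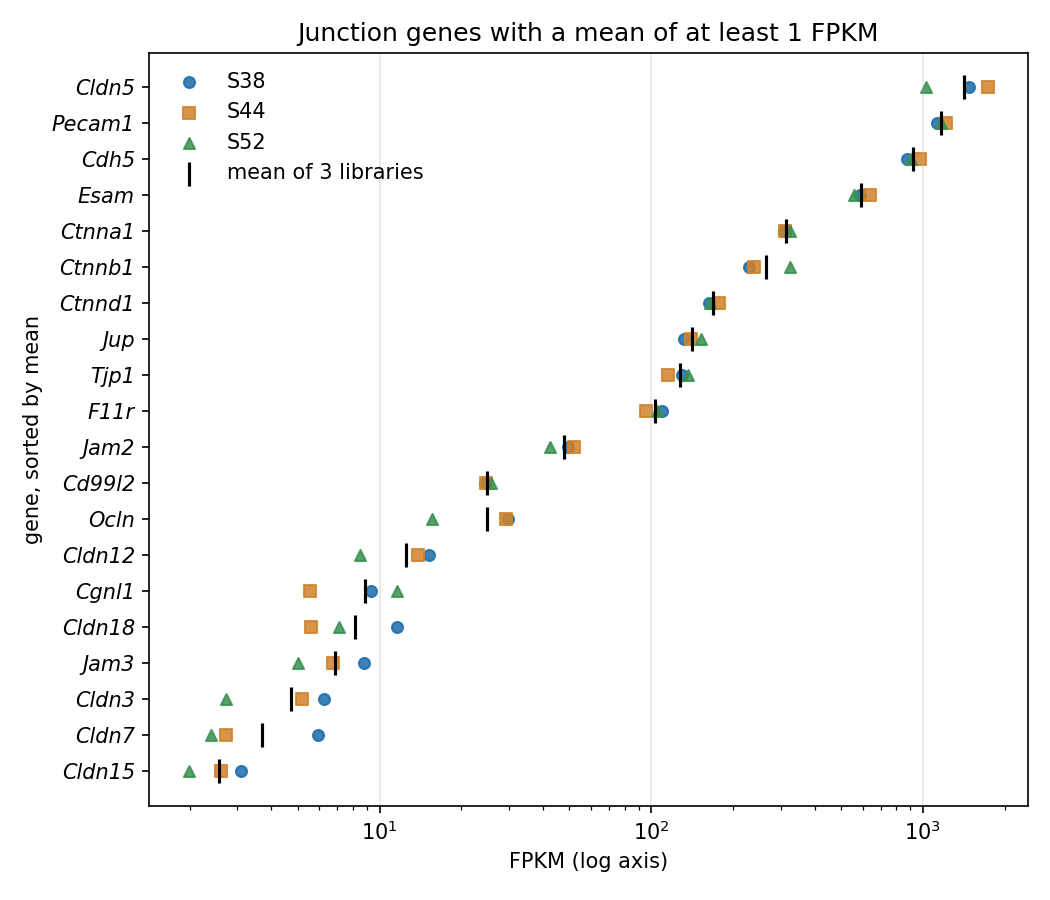
FPKM (log axis) of the 20 detected junction genes, sorted by mean. Each symbol is 1 library and the vertical bar is the mean of the 3 libraries. The order runs from *Cldn5* at a mean of 1416 FPKM to *Cldn15* at 2.56 FPKM, and the symbols of *Cd99l2*, *Ctnna1* and *Pecam1* nearly coincide.

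The promoters of 4 members are printed here, from the highest member to one listed at 0, to show what their start regions look like. RefSeq promoters of GRCm38.p6 were found for 32 of the 44 members, and *Cdh5*, *Pecam1* and *Esam* are among those without one. The 250 bases before the start site were searched on both strands for the GC box GGGCGG. This sequence is bound by Sp-family factors and common in broadly used promoters. In the sequences, read 5′ to 3′ on the strand of the gene, capitals mark each GC box or its reverse complement. *Cldn5* (chr16:18776597-18776846, plus strand) is the highest member, *Tjp1* (chr7:65371245-65371494, minus strand) the highest scaffold gene, *Cldn3* (chr5:134985964-134986213, plus strand) a claudin at a few FPKM and *Cldn17* (chr16:88506979-88507228, minus strand) a claudin listed at 0. The *Tjp1* window lies inside the bounds of the gene in GENCODE M21 (65296165 to 65527781), so it precedes a start site other than the outermost one.
Cldn5: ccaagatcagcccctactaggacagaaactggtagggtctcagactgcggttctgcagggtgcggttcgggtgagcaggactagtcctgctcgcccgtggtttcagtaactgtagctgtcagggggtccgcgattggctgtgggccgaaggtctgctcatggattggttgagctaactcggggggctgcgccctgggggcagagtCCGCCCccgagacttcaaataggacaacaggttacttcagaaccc
Tjp1: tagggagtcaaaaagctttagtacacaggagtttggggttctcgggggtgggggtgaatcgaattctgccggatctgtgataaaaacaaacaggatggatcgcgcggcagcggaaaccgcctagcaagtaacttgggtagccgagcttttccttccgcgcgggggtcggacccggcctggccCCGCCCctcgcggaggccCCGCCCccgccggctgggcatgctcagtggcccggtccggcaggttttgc
Cldn3: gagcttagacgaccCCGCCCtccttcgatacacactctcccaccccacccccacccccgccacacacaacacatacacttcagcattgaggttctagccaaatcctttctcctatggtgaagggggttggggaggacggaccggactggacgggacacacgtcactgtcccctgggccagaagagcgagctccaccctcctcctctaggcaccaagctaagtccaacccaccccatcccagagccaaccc
Cldn17: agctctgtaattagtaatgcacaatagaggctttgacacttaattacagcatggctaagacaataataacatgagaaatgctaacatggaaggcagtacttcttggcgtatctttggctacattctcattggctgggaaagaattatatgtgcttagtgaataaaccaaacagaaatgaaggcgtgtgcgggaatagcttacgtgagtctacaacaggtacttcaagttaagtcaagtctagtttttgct

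The *Tjp1* sequence holds 2 GC boxes, those of *Cldn5* and *Cldn3* hold 1 each, and that of *Cldn17* holds none. Of the 14 detected members with a promoter in the table, 12 had a GC box in at least 1 promoter (85.7%), against 64.6% of all 8879 detected genes. Of the 18 members below 1 FPKM, 7 had one (38.9%), against 26.6% of all 8312 such genes. None of the 6 claudins listed at 0 in every library had one, where 13.9% of all genes listed at 0 did. The difference between detected and other members thus ran the same way as in the whole table. The core GGAA of ETS factors, which include regulators of endothelial genes, was in 41 of 45 member promoters and in 93.4% of all 32851 promoters. It was not found in the windows of *Cldn5*, *Cldn3*, *Jup* and *Cldn34d*. Such matches are letters in a window and say nothing of binding.

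Among the claudins, *Cldn5* made up nearly all of the signal. The gene has 1 exon of 1416 bp (GRCm38, mm10, chromosome 16, 18776847 to 18778262, plus strand). It was at 1486 (S38), 1732 (S44) and 1029 FPKM (S52), which gives 1416 ± 357 FPKM (SD, n = 3 libraries). S52 was the lowest library for it, also after each library was rescaled to the same sum. An estimated 44145 fragments lie behind the S52 value, so counting error is small beside the difference. *Cldn5* contributed 96.9% of the summed FPKM of the 25 claudins in S38, 98.2% in S44 and 97.5% in S52. A share this close to the whole can hardly move. The level of *Cldn5* itself differed 1.68-fold between libraries. The claudins other than *Cldn5* summed to 47.4, 32.1 and 26.4 FPKM.

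The second claudin was *Cldn12*, an atypical member of the family that lacks the usual tail for binding scaffold proteins. It was at 15.2 (S38), 13.8 (S44) and 8.46 FPKM (S52), or 0.882% ± 0.125 of *Cldn5* in the same library (SD, n = 3). As for *Cldn5*, S52 was lowest, and the ratio of both genes varied less than either level. *Cldn15*, which forms cation pores in the intestine, was at 3.09, 2.60 and 1.996 FPKM in the same order. An estimated 119 to 205 fragments lie behind these values. *Cldn15* was lowest in S52 as well, with 1.55-fold between the highest and the lowest library.

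The 4 claudins known from lung epithelium were low. *Cldn18*, a claudin of alveolar epithelium, was at 11.6 (S38), 5.61 (S44) and 7.10 FPKM (S52). *Cldn3* was at 6.25, 5.19 and 2.71 FPKM and *Cldn7* at 5.93, 2.72 and 2.40 FPKM in the same order. *Cldn4* did not reach the threshold, at 1.89, 0.0465 and 0.693 FPKM, and its S44 value stands for an estimated 3 fragments. All 4 were highest in S38, and the lowest library was S44 for *Cldn18* and *Cldn4* and S52 for *Cldn3* and *Cldn7*. This held as deposited and after rescaling to the same sum. The median of the 4 genes was 6.09 (S38), 3.95 (S44) and 2.56 FPKM (S52). That of the 13 endothelial junction genes (*Cldn5*, *Cdh5*, *Pecam1*, *Esam*, *F11r*, *Jam2*, *Jam3*, *Cd99l2*, *Tjp1* and the 4 catenins) was 164, 178 and 165 FPKM. Both lists were fixed from general knowledge, but with earlier results of these data known. The longer one includes the genes of the sort, *Cdh5* and *Pecam1*, and leaves out lower detected members such as *Ocln*, *Cldn12* and *Cgnl1*. The gap between the medians therefore also holds this choice.

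Epithelial markers also differed between libraries. Of 6 pan-epithelial genes, 5 were at 1 FPKM or above in every library and none was listed at 0, and their summed level was 77.3 (S38), 45.8 (S44) and 43.2 FPKM (S52). Their medians were 10.7, 7.44 and 8.68 FPKM. *Epcam*, a surface protein of epithelia, was at 3.80, 2.07 and 0.448 FPKM and *Cdh1*, E-cadherin, at 7.48, 3.77 and 1.64 FPKM, and *Krt8* and *Krt18* were lowest in S52 too. The keratin genes *Krt7*, at 9.63, 6.68 and 13.6 FPKM, and *Krt19*, at 11.9, 8.19 and 10.1 FPKM, were instead lowest in S44. All 5 alveolar type 2 markers were at 1 FPKM or above in every library, whereas 4 of the 5 alveolar type 1 markers were, with sums of 351, 375 and 276 FPKM. *Hopx* made up most of these sums, at 294, 332 and 201 FPKM, whereas *Ager*, at 43.3, 33.4 and 66.0 FPKM, *Rtkn2* and *Pdpn* were highest in S52. Of the 5 airway markers, 4 were at 1 FPKM or above throughout, with sums of 2780, 2316 and 401 FPKM, and *Bpifa1* was listed at 0 in S52. *Scgb1a1* alone made up most of these sums, at 2669, 2212.5 and 378 FPKM. The part of epithelial RNA in the claudin levels was not tested. In bulk samples, fewer cells of a type and less RNA per cell cannot be told apart.

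The other 18 claudins were below the threshold. *Cldn10* and *Cldn6* exceeded 1 FPKM in 1 library each. *Cldn10*, an ion-pore claudin of the kidney and other epithelia, was at 2.099 FPKM (S38) and 0.380 FPKM (S44), with S52 listed at 0. *Cldn6*, known from embryonic epithelia, was at 0.175, 0.190 and 2.03 FPKM, the S52 value standing for an estimated 101 fragments. These rest on single libraries, and the direction is opposite for both genes.

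Of the rest, *Cldn1*, a barrier claudin of the epidermis, was at 0.427, 0.398 and 0.734 FPKM. *Cldn19*, which works with claudin-16 in the kidney tubule, ranged from 0.173 to 0.320 FPKM, and *Cldn11*, of myelin and the testis, from 0.0460 to 0.179 FPKM. *Cldn8* and *Cldn2*, of kidney epithelium, were at most 0.108 and 0.136 FPKM and were listed at 0 in S52. *Cldn22*, *Cldn23* and *Cldn24* were above 0 in 1 library each. *Cldn22* reached 0.554 FPKM in S44, but all 995 bp of it lie inside exons of *Wwc2* on the opposite strand, a gene at 26.6 FPKM, and reads without strand information cannot be told apart there. *Cldn9*, *Cldn13*, *Cldn14*, *Cldn16*, *Cldn17*, *Cldn20*, *Cldn34a* and *Cldn34d* were listed at 0 in all 3 libraries. For *Cldn14* a count of 0 allows up to 0.0609 (S38), 0.0596 (S44) and 0.0677 FPKM (S52) (3 fragments, counting error only), and for *Cldn34a*, the shortest, up to 0.182 FPKM in S52.

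**Figure D2:**
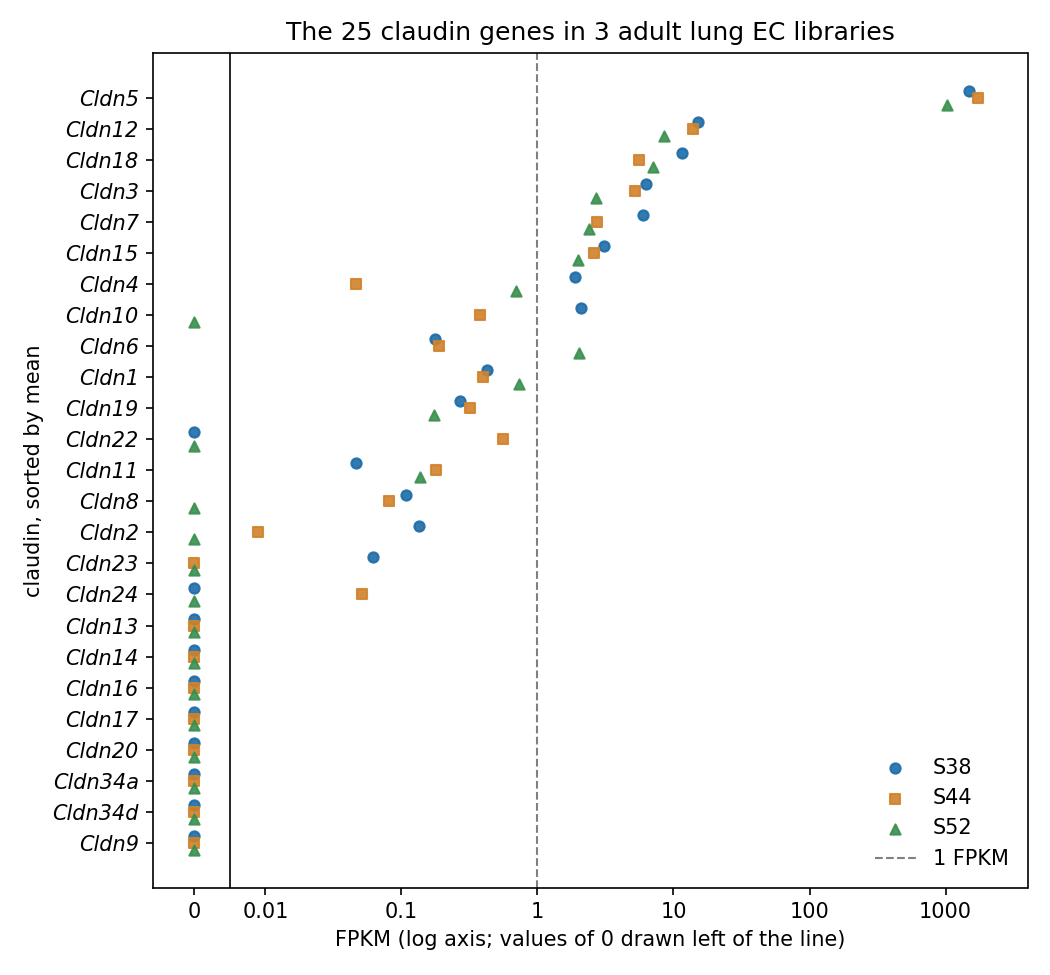
FPKM (log axis) of the 25 claudin genes in the 3 libraries, with values of 0 drawn left of the solid line and the detection threshold of 1 FPKM dashed. *Cldn5* lies at or above 1029 FPKM in each library, the next 5 claudins lie between 1.996 and 15.2 FPKM, and 8 claudins are at 0 in all 3 libraries.

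Of the 6 genes of the adherens junction, 5 were detected, all of them above 100 FPKM. *Cdh5* (chromosome 8, 104101625 to 104144511, plus strand, 12 exons) was at 877 (S38), 978 (S44) and 908 FPKM (S52). *Cdh2*, N-cadherin, through which ECs and mural cells can attach to each other, was at 0.293, 0.507 and 0.655 FPKM, or 0.0524% ± 0.0193 of *Cdh5* in the same library (SD, n = 3). Both cadherins were thus above 0 throughout, and only *Cdh5* was detected. Among the mural markers, 4 of 5 were at 1 FPKM or above in every library, with sums of 125 (S38), 66.1 (S44) and 117 FPKM (S52), and none was listed at 0. Their part in the *Cdh2* level was not tested.

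The catenins ranked below *Cdh5* in each library. *Ctnna1*, α-catenin, which links the complex to actin, was at 307 (S38), 310 (S44) and 326 FPKM (S52). *Ctnnb1*, β-catenin, which binds the cadherin tail and also carries Wnt signals, was at 230, 238 and 324 FPKM. S52 was its highest library as deposited and after rescaling to the same sum. *Ctnnd1*, p120-catenin, which keeps VE-cadherin at the surface, was at 164, 178 and 165 FPKM, and *Jup*, plakoglobin, which can take the place of β-catenin, was at 133, 140 and 153 FPKM.

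Set against *Cdh5* in the same library, a measure that does not depend on how libraries are scaled, *Ctnnd1* varied least. It was at 18.7% of *Cdh5* in S38, 18.2% in S44 and 18.2% in S52. *Ctnna1* was at 35.1%, 31.8% and 35.9% and *Jup* at 15.1%, 14.4% and 16.8%. *Ctnnb1* was at 26.2%, 24.4% and 35.7%, so S52 lay above the other libraries. In S52 *Ctnnb1* was at 99.5% of *Ctnna1*, against 74.8% in S38 and 76.7% in S44. *Pecam1* stayed at 124% to 128% of *Cdh5* and *Esam* at 61.3% to 66.7%, while *Cldn5* was at 169% in S38, 177% in S44 and 113% in S52. *Cldn5* was therefore less even against *Cdh5* than *Pecam1* and *Esam* were. In the annotation 14.6% of the exonic bases of *Ctnnb1* also belong to *Ulk4* on the opposite strand, which was at 0.328 FPKM, and 61.2% of those of *Ctnnd1* also belong to the gene model *Gm28635* on the same strand, which has no row in the table.

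**Figure D3:**
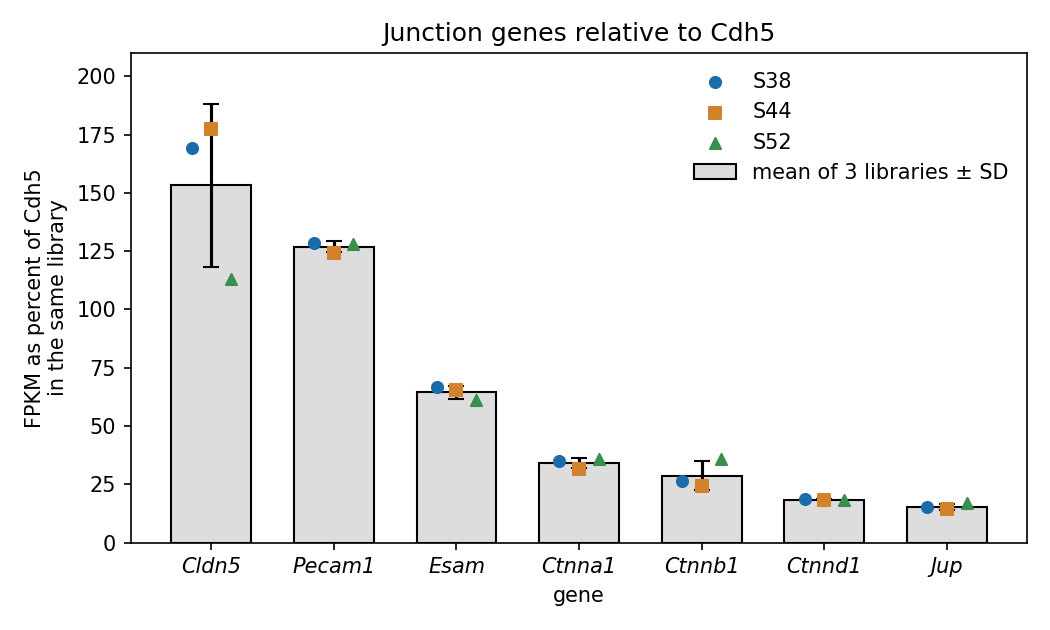
FPKM of 7 junction genes as a percentage of *Cdh5* in the same library. Bars are means of the 3 libraries with SD, and symbols are single libraries. *Pecam1*, *Esam* and *Ctnnd1* lie close together across libraries, whereas *Cldn5* falls from 177% in S44 to 113% in S52.

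All 6 immunoglobulin-type and CD99-type adhesion molecules were detected. *Pecam1* (chromosome 11, 106654217 to 106750628, minus strand), a homophilic receptor of ECs, platelets and leukocytes, was at 1125 (S38), 1216 (S44) and 1164 FPKM (S52). *Esam* (chromosome 9, 37528078 to 37538319, plus strand), found at endothelial tight junctions and on platelets, was at 585, 641 and 557 FPKM. *F11r*, JAM-A, was at 110, 95.5 and 105 FPKM. These 3 genes are also known from platelets, whose 4 markers summed to 1692, 1345 and 37.96 FPKM, and the part of platelet RNA in their levels was not tested. *Jam2*, JAM-B, was at 49.3, 51.96 and 42.6 FPKM, and *Jam3*, JAM-C, at 8.79, 6.73 and 5.01 FPKM. The order *F11r*, *Jam2*, *Jam3* held in each library with ranges that did not overlap. *Cd99l2*, which takes part in the passage of leukocytes between ECs, was at 24.4, 24.7 and 25.7 FPKM with a coefficient of variation of 2.68% as deposited. After rescaling to the same sum its highest library was 1.37-fold above its lowest. Of the exonic bases of *Jam3*, 36.2% overlap an antisense gene, *Gm48796*, which has no row in the table, so part of its value may belong there.

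Of the membrane proteins with a MARVEL domain, 1 of 3 was detected. *Ocln*, occludin, was at 29.6 (S38), 29.2 (S44) and 15.6 FPKM (S52). S38 and S44 hardly differed, and S52 was 1.90-fold below S38. *Marveld2*, tricellulin, which seals the points where 3 cells meet, was at 0.309, 0.914 and 0.253 FPKM. *Marveld3* was at 0.0918 FPKM in S38 and 0.0335 FPKM in S44 and was listed at 0 in S52.

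Of the scaffold genes on the inner face, *Tjp1* and *Cgnl1* were detected. *Tjp1*, ZO-1, was at 130, 116 and 136 FPKM, and *Cgnl1*, paracingulin, at 9.31, 5.55 and 11.6 FPKM. *Cgnl1* was highest in S52 and lowest in S44, also after rescaling to the same sum. *Tjp3*, ZO-3, a scaffold known from epithelia, was at 0.444, 0.369 and 0.232 FPKM, and *Cgn*, cingulin, at 0.601, 0.221 and 0.109 FPKM. *Ocln* was at 22.8% of *Tjp1* in S38, 25.3% in S44 and 11.4% in S52.

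The spread between libraries differed among the detected members. The highest library was over 2-fold above the lowest for 4 of the 20 (20%), namely *Cldn7*, *Cldn3*, *Cgnl1* and *Cldn18*, against 20.1% of all 11770 detected genes. Without S52 the count was 3 of 21 members, against 5.06% of all detected genes, without S44 5 of 23 against 14.8%, and without S38 2 of 21 against 13.5%, so how the members stood to the table depended on the libraries used. Of these 4 genes 3 are claudins, of 6 detected, and 1 is among the other 14. The median coefficient of variation was 33.5% for the 6 claudins and 7.17% for the 14 other genes, beside 17.6% for all detected genes. The claudins other than *Cldn5* lie low in the order of levels, and the part of level in their spread was not tested. *Cldn5*, with 25.2%, lay above *Pecam1*, with 3.89%, and *Cdh5*, with 5.59%, its neighbours in level among the members and the genes of the sort. Endothelial genes outside the group were not all even either. *Kdr* was at 380 (S38), 360 (S44) and 237 FPKM (S52) and *Emcn* at 156, 181 and 267 FPKM. *Tie1*, at 375, 426 and 411 FPKM, varied less.

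Of the 20 detected members 9 were lowest in S52, or 45%, against 46.3% of all detected genes, again the share of the whole table. They were *Cldn5*, *Cldn12*, *Cldn3*, *Cldn7*, *Cldn15*, *Ocln*, *Jam3*, *Esam* and *Jam2*. All 9 were also lowest in S52 after rescaling to the same sum. Among them are 5 of the 6 detected claudins and 4 of the 14 other members. For *Pecam1*, *Cdh5*, *Ctnna1*, *Ctnnd1*, *Jup* and *Cd99l2*, S38 was lowest as deposited and S44 after rescaling to the same sum, so no direction is given for these genes. That rescaling shifts all values of a library on the log2 scale by -0.21 in S38, -0.68 in S44 and -0.51 in S52. Rescaling by the median of ratios divides by 0.998 (S38), 1.0065 (S44) and 0.997 (S52). It left the same 9 genes lowest in S52 but could hardly have changed them.

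**Figure D4:**
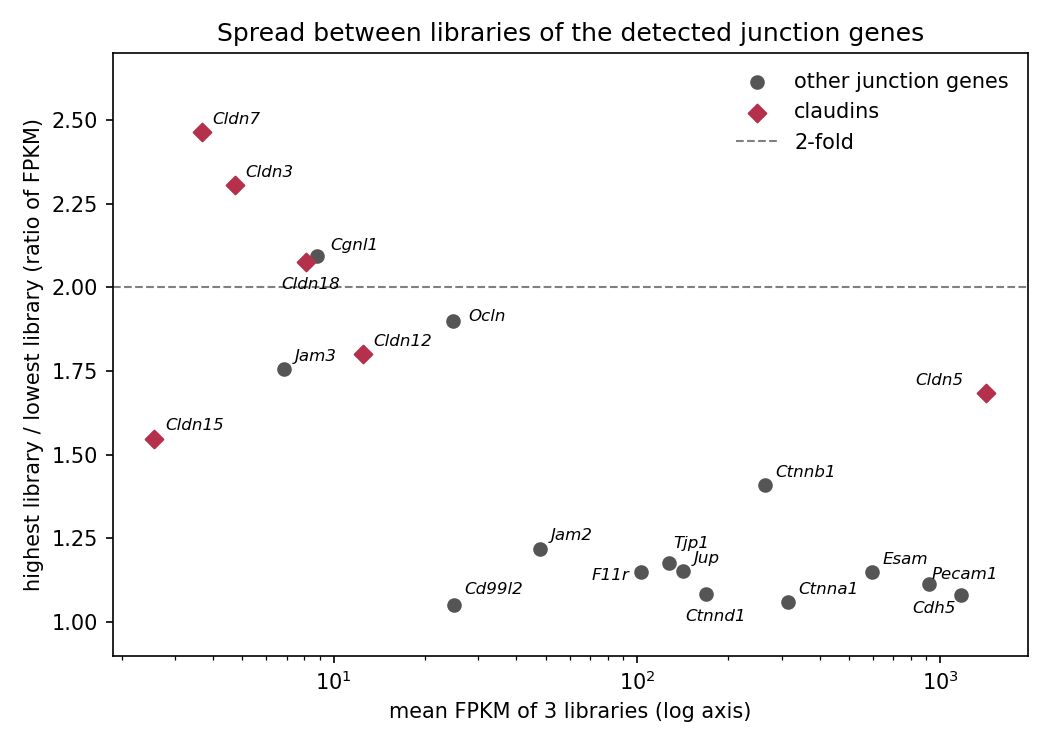
Ratio of the highest to the lowest library against mean FPKM (log axis) for the 20 detected junction genes, with claudins as diamonds and 2-fold dashed. *Cldn7*, *Cldn3*, *Cgnl1* and *Cldn18* lie above 2-fold, and *Cldn5*, at 1.68, lies above the other genes over 100 FPKM.

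Other genes of the junction pathway were taken from a list of 58 partners, regulators and relatives of the members, of which 57 have a row and *Cd99* has none. Of the 57, 40 were detected (70.2%), against 48.3% of all genes. This list was picked by hand too, so its share also holds that choice. At 10 FPKM or above were 24 of the 57, beside 6269 of all 24346 genes, and 2 were listed at 0 in all libraries, beside 7183 of all genes. The 10 highest were *Icam2*, *Rap1b*, *Ptprb*, *Mcam*, *Rap1a*, *Rasip1*, *Arhgap29*, *Vcl*, *Gja4* and *Ptprm*. *Icam2*, an adhesion molecule of endothelial contacts, was at 912 (S38), 1049 (S44) and 775 FPKM (S52), about the level of *Cdh5*.

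The phosphatase gene *Ptprb*, whose product VE-PTP binds VE-cadherin, was at 257, 272 and 271 FPKM, and *Ptprm*, a phosphatase that binds its like on the next cell, was at 70.4, 70.1 and 91.3 FPKM. The small GTPases of the Rap1 pathway, which strengthens endothelial junctions, were at 489, 484 and 433 FPKM for *Rap1b* and 213, 174 and 159 FPKM for *Rap1a*. Their effectors *Rasip1*, at 123, 133 and 161 FPKM, and *Arhgap29*, at 134, 141 and 132 FPKM, were in the range of *Jup* and *Tjp1*. *Mcam*, CD146, was at 222, 253 and 262 FPKM, and *Vcl*, vinculin, which joins α-catenin under tension, at 139, 143 and 102 FPKM. *Gja4*, a connexin of arterial ECs, differed most among the 10, at 58.1, 88.7 and 112 FPKM.

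Markers of the remaining cell types were read for the same libraries. The 5 lymphatic endothelial markers summed to 592 (S38), 649 (S44) and 411 FPKM (S52), mostly *Lyve1*, which lung capillary ECs are also known to express, and 2 of the 5 were at 1 FPKM or above in every library. *Ccl21a* was listed at 0 in S52, and *Prox1*, the defining lymphatic factor, was at 0.132, 0.173 and 0.598 FPKM. Of the leukocyte markers 4 of 5 were at 1 FPKM or above throughout, with sums of 79.0, 80.2 and 29.0 FPKM, and all 4 fibroblast markers were, with sums of 75.4, 59.5 and 40.1 FPKM. The 4 mesothelial markers summed to 2.34 and 6.14 FPKM in S38 and S44 and were listed at 0 in S52. Their part in the levels of the members was not tested.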

How the data were processed

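RNA of sorted adult lung ECs was poly-A selected and sequenced without strand information as paired reads of 51 bp, in 3 libraries grouped by their labels. The table the authors deposited gives FPKM for each gene symbol (mm10), 1 column per library, used as deposited, with 0 columns left out. The submitters' processing notes name bcl2fastq 2.17, FastQC 0.11.5, Trimmomatic 0.36, TopHat2 2.1.0 and Cufflinks 2.2.1, without roles. The methods of the study describe STAR and HTSeq counts instead, and the gene annotation is not given in the sources used here. FPKM is not a count, so no count model was fitted, and with 1 condition there was no contrast to test.

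Means, SDs, ranks and ratios were computed with pandas 2.3.3 and numpy 2.4.6. Detection was a mean of at least 1 FPKM. Genomic positions and exon overlaps are those of GENCODE M21 (GRCm38), which holds 23310 of the 24346 symbols and all 44 members. Depth was estimated by searching for the step that makes low FPKM values of 7077 single-transcript genes whole numbers of fragments. The step found was judged on 324 (S38), 412 (S44) and 207 (S52) low values, of which 74.9% to 78.4% came within 0.15 of a whole number. Some values come that close with any step. In tests on simulated data for 7077 genes, 3 known depths were recovered with an error of at most 0%. That figure does not give the error of the depths of S38, S44 and S52, where not all low values came near a whole number. The error of these depths was not tested. Fragment numbers rest on them, use the longest transcript and are estimates. Floors are 3 fragments and cover counting error only, since reads carry no molecular identifiers.

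The members, the lists of partner, epithelial and marker genes and the alternatives were chosen with earlier results of these data known. The depth estimate, the promoter motifs and the ratios between members were chosen after values were seen. Values per library are given for detected members and the 10 highest partners, by rule. Protein sequences are not shown here. Alternatives were other thresholds, folds and pseudocounts (0.1 and 1), leaving out each library, rescaling each library to a sum of 1000000, and rescaling by the median of ratios over genes that reached 10 FPKM in each of the 3.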

Additional observations from a re-analysis of the deposited data

How the results depend on the processing

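Of 57 alternatives over 7 results, 45 left the value within 1.5 times the count, or within 1 SD over libraries. Some of the 45 could not move. The share of *Cldn5* in the claudin sum is taken within a library, so rescaling leaves it unchanged. Rescaling by the median of ratios hardly changes any value, so it could hardly move any result. Lowering the detection threshold to 0.1 FPKM gave 31 members and 13 claudins, and raising it to 10 FPKM gave 2 claudins and 24 partner genes. Of all 24346 genes, 6269 reached 10 FPKM, and the share at 0.1 FPKM was not computed. The number of detected members over 2-fold between libraries, 4 as deposited, was 1 with FPKM + 1 in the ratio, 9 at 1.5-fold, 0 at 3-fold, 12 with no filter on low values, 0 with a minimum mean of 10 FPKM and 7 after rescaling to a sum of 1000000, where 25.8% of all detected genes were over 2-fold. Leaving out each library gave 2 to 5, the lowest without S38 (replicate 1). The share of all detected genes over 2-fold was then 13.5% without S38, 14.8% without S44 and 5.06% without S52. No such share was computed for the pseudocounts, the other folds and the other filters. Their counts are therefore not a result about the members. Rescaling to a sum of 1000000 moved the median of the endothelial junction genes from 169 to 123 FPKM. The number of detected claudins ranged from 7 to 9 when a library was left out, the highest without S44, since *Cldn4*, *Cldn10* and *Cldn6* then passed 1 FPKM. No paired analysis was possible because all libraries are of 1 group. At these depths a gene under about 0.05 FPKM rests on a handful of fragments.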

Other observations

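The symbol rule leaves out claudin-related rows with other symbol forms, which were read after the rule had been applied. *Cldn34c1*, on chromosome X, was at 6.27 (S38), 6.53 (S44) and 7.60 FPKM (S52), above *Cldn3*, *Cldn7* and *Cldn15* in each library. The other rows of that subfamily, *Cldn34b1*, *Cldn34b2*, *Cldn34b3*, *Cldn34b4*, *Cldn34c4* and *Cldn34-ps*, were listed at 0 throughout, as were *Cldn34a* and *Cldn34d*. These genes are close copies of each other, and how reads shared between copies were assigned is not given in the sources used here, so the value of *Cldn34c1* is uncertain. *Cldnd1*, a claudin domain gene outside the family, was at 25.4, 21.8 and 24.2 FPKM, between *Jam2* and *Cldn12* in level, and *Cldnd2* was listed at 0.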
